A study of Mus musculus with 9 samples.

Results

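The genes described here are 10 members of the interleukin-6 family and its STAT3 feedback loop, measured by RNA sequencing in mouse back skin. They were selected by gene name, with no measured value in the rule, as the ligands Il6, Osm, Lif and Il11, the receptor chains Il6ra and Il6st, the transcription factor Stat3, and the feedback inhibitors Socs1, Socs3 and Cish. All 10 were present in the deposited tables, and all 10 were among the 20817 genes, of 55401, that passed the filter on low counts.

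Both groups consisted of C57BL/6 male mice, 6 to 8 weeks old, in which an eczema-like inflammation was raised with the contact sensitizer DNCB. The back was shaved over an area 2 cm by 2 cm, sensitized on day 1 with 200 µL of 1% DNCB, and challenged between day 4 and day 21 with 100 µL of 0.5% DNCB. After day 7 the FJDHF group was fed Fangji Dihuang formulation, a mixture of plant drugs, by mouth every day until day 28, and the Model group was given water. The study's text names the sequenced arm FJDHF-M, its medium dose. Every mouse thus carried the DNCB treatment, and healthy skin was not analysed here. The mice were of a standard inbred strain, and the lesions followed repeated exposure to a hapten on shaved skin, not a spontaneous or inherited disease.

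The columns of the tables carry codes that the study does not explain. From the number of columns, and because MX abbreviates a Chinese term meaning model, MXL was read as the Model group, with 4 libraries, and MR as the FJDHF group, with 5. The directions given here rest on that assignment. A code with more than 1 number, such as MR3_4 or MXL12, may stand for pooled mice, so each n counts libraries, and the p-values measure the spread between libraries only. Total counts ranged from 74648669 to 79474215. MXL12 stood apart from the other 8 libraries in the markers of neutrophils and skeletal muscle, and lay within their range for the other cell types examined. Its 10 neutrophil marker genes summed to 684 CPM (counts relative to depth, scaled by the trimmed mean of M values), against 27.9 to 167 elsewhere, and its 7 skeletal muscle genes to 427 CPM, against 1519 to 12018. Markers of skin were present in every library, with 7 keratinocyte genes summing to between 3172 and 15525 CPM, and to 4200 CPM in MXL12. Fitted fold changes of the 10 genes are therefore given with and without MXL12.

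Cytokines of this family signal through receptor complexes that share the chain gp130, the product of Il6st. Receptor engagement activates Janus kinases, which phosphorylate STAT3, and phosphorylated dimers of STAT3 enter the nucleus and switch on genes that include Socs3. The SOCS3 protein binds gp130 and the kinases and limits further signalling, and SOCS1 and CISH are related inhibitors of cytokine receptors. In skin, oncostatin M comes mainly from leukocytes, and interleukin-6 from leukocytes, fibroblasts and keratinocytes. Epidermal STAT3 is active during wound repair and inflammation.

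Sequences before a RefSeq start of the gene with the largest fitted difference and of the classical STAT3 target are shown, with matches to general patterns marked. Whether a marked match is a site in use was not tested. RefSeq windows of 250 bases before the start (GRCm38.p6) were matched for 9 of the 10 genes, with Osm unmatched and 10 windows in all. Capitals mark matches, searched on both strands, to TTCNNNGAA (the palindromic pattern bound by STAT dimers), GGANTTTCC (the core of an NF-kB site) and TGANTCA (an AP-1 site). The first sequence is chr5:30012864-30013113 on the plus strand, directly before the start of Il6. The second is chr11:117969452-117969616 on the minus strand, the stretch of the Socs3 window that lies outside every annotated exon. This stretch lies inside the annotated Socs3 gene, which spans 117966079 to 117970047. The coding Socs3 transcript begins at 117969186, and the window stops at 117969367. The bases directly before that transcript were thus not searched.
Il6: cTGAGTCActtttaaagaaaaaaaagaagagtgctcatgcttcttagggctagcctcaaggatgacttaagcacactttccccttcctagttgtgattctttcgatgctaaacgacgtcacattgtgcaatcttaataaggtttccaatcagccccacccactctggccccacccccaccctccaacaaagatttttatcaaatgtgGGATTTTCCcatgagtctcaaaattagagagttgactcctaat
Socs3: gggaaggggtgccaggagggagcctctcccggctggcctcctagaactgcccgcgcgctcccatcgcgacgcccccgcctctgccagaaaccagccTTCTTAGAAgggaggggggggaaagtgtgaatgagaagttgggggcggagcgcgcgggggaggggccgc

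The STAT pattern was found in the window of Socs3 alone among the 10 windows. Its first base lay 154 bases before the RefSeq start and its last base 326 bases before the first base of the coding Socs3 transcript in GENCODE M21. The same pattern occurred in 7.02% of the 32851 mouse windows of this length. The windows of Il6ra and Cish lay wholly within annotated exons. The Cish window, from 107296409 to 107296658, lay inside the Cish gene, which starts at 107296026. The sequence before that start was thus not searched. The NF-kB core was found in the Il6 window alone, beginning 43 bases before the start, and occurred in 1.07% of all windows. The AP-1 pattern was found in the windows of Il6, Il11 and Lif and in 6.75% of all windows. A match describes letters only, and no binding was measured in these libraries.

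The first question was whether any of the 10 genes differed between the MR and MXL libraries. None was called by the edgeR quasi-likelihood test with both an adjusted p under 0.05 and a change of 2-fold or more, and the same held for all genes, with 0% called. None had an unadjusted p under 0.05, against 1.57% of all tested genes, and none separated the groups without overlap, against 0.514%. DESeq2 called none of the members to which it gave a p. It gave no p for Il6 and Osm, which it thus did not test. The fitted log2 fold change was below 0, that is lower in MR, for 7 genes and above 0 for 3, with a median of -0.08 beside -0.03 over all tested genes. Without MXL12 the split was 3 below and 7 above, with a median of 0.13.

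**Figure D1:**
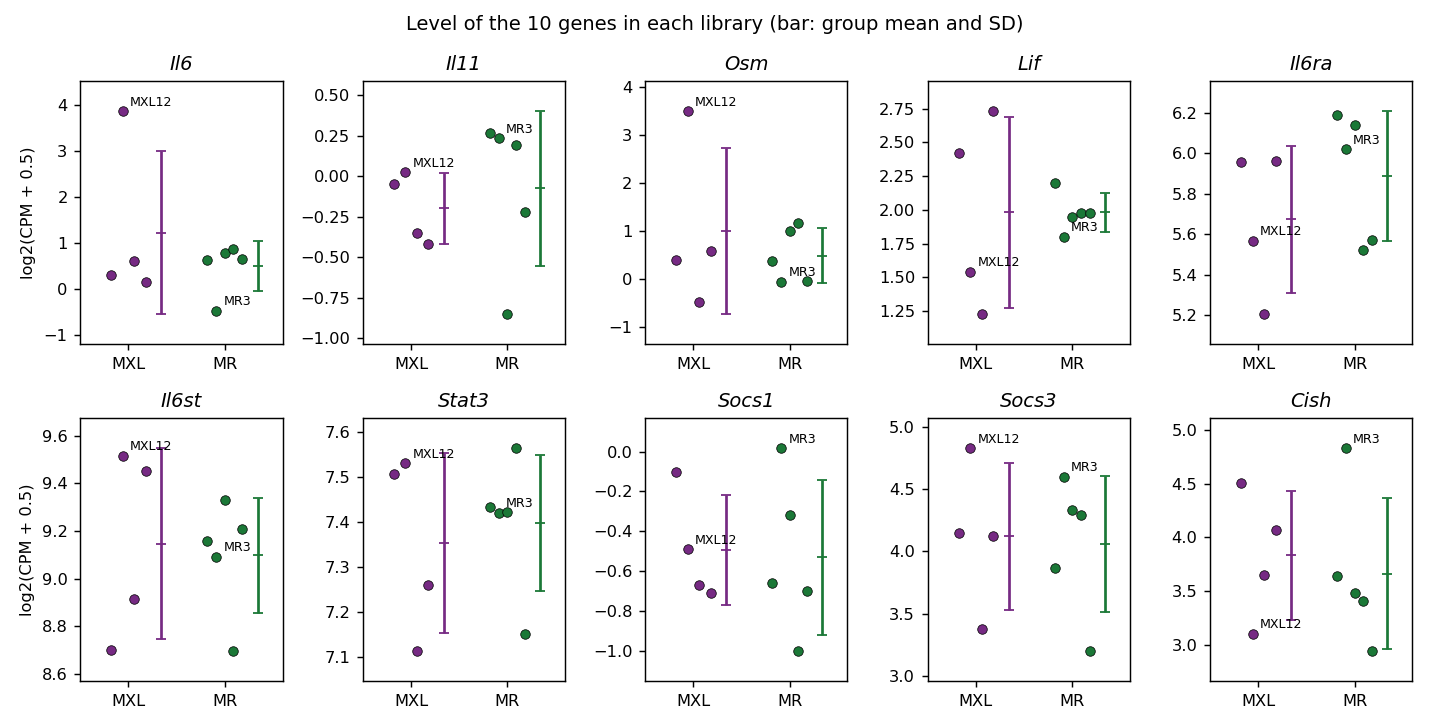
Level of each gene on the log2(CPM + 0.5) scale (vertical axis, a separate range per gene) in the 4 MXL and 5 MR libraries, 1 point per library, with the group mean and SD as a bar beside the points. The groups overlap for all 10 genes, and MXL12 lies far above the other 8 libraries for Il6 and Osm.

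Il6, on chromosome 5 from 30013114 to 30019981 (build mm10, GRCm38, as for all positions), encodes the founding cytokine of the family, which acts on many cell types through the receptor chain of Il6ra and gp130. Its level was 1.06 CPM in MR1, 0.225 in MR3, 1.23 in MR3_4, 1.34 in MR4_5 and 1.08 in MR5. In the MXL group it was 0.734 CPM in MXL1, 14.1 in MXL12, 1.03 in MXL3_4 and 0.609 in MXL_3. MXL12, with 1068 counts, held 10 times or more of every other library's level, and the other 3 MXL libraries fell within the range of the MR libraries. The level was 0.987 ± 0.440 CPM in MR (SD, n = 5) and 4.13 ± 6.68 in MXL (SD, n = 4), or 0.792 ± 0.218 without MXL12 (n = 3). The fitted log2 fold change was -2.06 with a standard error of 0.95 (edgeR adjusted p = 1.00, as for all 10 genes) and became 0.32 without MXL12. The edgeR test before adjustment gave p = 0.0539, and the exact permutation test of log2(CPM + 0.5), two-sided over all 126 assignments, gave p = 0.587, where 0.0159 is the smallest value it allows.

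Osm, on chromosome 11 from 4236420 to 4241026, encodes oncostatin M, a leukocyte product that drives keratinocyte activation. In the MR group it was 0.797 CPM in MR1, 0.462 in MR3, 1.52 in MR3_4, 1.74 in MR4_5 and 0.472 in MR5. MXL1 held 0.823 CPM, MXL12 10.8, MXL3_4 0.219 and MXL_3 1.01. The single high library was again MXL12, with 815 counts, and both the lowest and the highest value of all 9 belonged to the MXL group. Means were 0.997 ± 0.596 CPM in MR (SD, n = 5) and 3.21 ± 5.06 in MXL (SD, n = 4), the latter 0.684 ± 0.413 without MXL12 (n = 3). The log2 fold change of -1.69 had a standard error of 0.96 (edgeR p = 0.108, adjusted p = 1.00), it became 0.54 without MXL12, and the exact permutation test gave p = 0.667.

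The high Il6 and Osm levels of MXL12 stood beside the neutrophil markers of the same library. MXL12 exceeded the median of the other 3 MXL libraries 19.3-fold for Il6 and 13.1-fold for Osm. Across all 20670 genes that could be compared in this way, 111, or 0.537%, exceeded it at least 10-fold, with Il6 at rank 53 and Osm at rank 87. The same count was 116 for MXL1, 41 for MXL3_4 and 132 for MXL_3, so MXL12 did not hold the most such genes. All 10 neutrophil markers, from the granule alarmin genes S100a8 and S100a9 to the receptors Csf3r and Cxcr2, were highest in MXL12, while Ly6g was at 0 counts in at least 1 library. The median log2 fold change of these markers was -1.16, and 0.46 without MXL12. Macrophage markers summed to 2600 CPM in MXL12 and 1234 to 3389 elsewhere, and T cell markers to 27.4 CPM and 13.3 to 36.9. The part of neutrophil content in the Il6 and Osm values was not tested, and in RNA of whole skin, more cells of a type and more RNA per cell cannot be told apart.

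**Figure D2:**
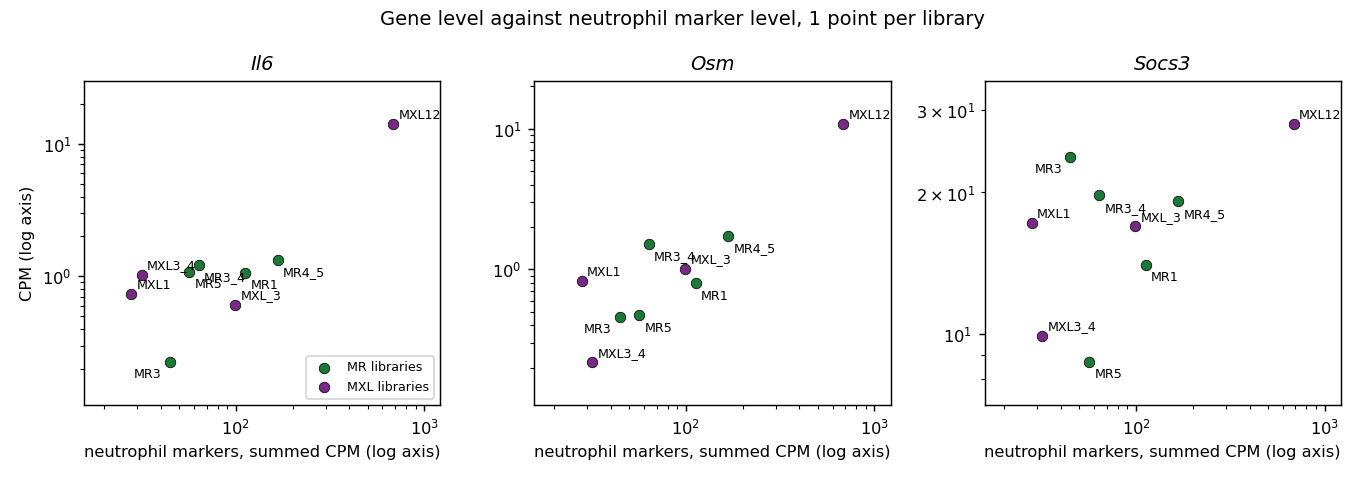
CPM of Il6, Osm and Socs3 (vertical, log axis) against the summed CPM of 10 neutrophil marker genes (horizontal, log axis), 1 point per library, coloured by group. MXL12, at 684 CPM of neutrophil markers, is the highest library on both axes in all 3 panels, and for Socs3 it holds 28.0 CPM beside 23.8 CPM in MR3.

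Lif, on chromosome 11 from 4257557 to 4272514, encodes leukemia inhibitory factor, which signals through its own receptor chain and gp130. Its level in the MR group was 4.09 CPM in MR1, 2.99 in MR3, 3.35 in MR3_4, 3.44 in MR4_5 and 3.44 in MR5. The MXL libraries spread more widely, with 4.86 CPM in MXL1, 2.41 in MXL12, 1.85 in MXL3_4 and 6.13 in MXL_3. All MR values lay inside the MXL range, and MXL12 was not among the high libraries. Means were 3.46 ± 0.398 CPM (MR, SD, n = 5) and 3.81 ± 2.03 (MXL, SD, n = 4). The log2 fold change was -0.14 with a standard error of 0.36 (edgeR p = 0.705, exact permutation p = 1.00), and -0.31 without MXL12.

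Il11, on chromosome 7 from 4772373 to 4782857, encodes interleukin-11, a stromal cytokine of the family. It was 0.704 CPM in MR1, 0.675 in MR3, 0.055 in MR3_4, 0.642 in MR4_5 and 0.357 in MR5. In the MXL group it was 0.468 CPM in MXL1, 0.516 in MXL12, 0.284 in MXL3_4 and 0.249 in MXL_3. The lowest value, in MR3_4, rested on 4 counts, and the other libraries held 18 to 54. MR reached 0.487 ± 0.278 CPM (SD, n = 5) and MXL 0.379 ± 0.133 (SD, n = 4), a log2 fold change of 0.36 with a standard error of 0.63 (edgeR p = 0.582) and an exact permutation p of 0.667. Without MXL12 the log2 fold change was 0.54.

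The receptor chains were well expressed and differed little. Il6ra, on chromosome 3 from 89864059 to 89913196, encodes the chain that binds interleukin-6 itself, and its levels were 72.4 CPM in MR1, 64.4 in MR3, 70.1 in MR3_4, 45.4 in MR4_5 and 47.0 in MR5. MXL1 held 61.6 CPM, MXL12 46.9, MXL3_4 36.4 and MXL_3 61.9. The MR libraries fell into a trio above every MXL library and a pair inside the MXL range. Means were 59.9 ± 12.8 and 51.7 ± 12.3 CPM (SD, n = 5 and n = 4), a log2 fold change of 0.21 with a 95% interval of -0.27 to 0.70 (edgeR p = 0.355, exact permutation p = 0.333) and of 0.17 without MXL12.

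Il6st, on chromosome 13 from 112464070 to 112510086, encodes gp130. It was 571 CPM in MR1, 545 in MR3, 643 in MR3_4, 415 in MR4_5 and 590 in MR5, and 415 CPM in MXL1, 732 in MXL12, 483 in MXL3_4 and 701 in MXL_3. The group of 4 again spanned the group of 5 almost completely. Means were 553 ± 85.2 CPM in MR and 582 ± 157 in MXL (SD, n = 5 and n = 4), with a log2 fold change of -0.08 and a 95% interval of -0.55 to 0.40 (edgeR p = 0.730, exact permutation p = 0.810), which changed sign to 0.05 without MXL12. Per transcript length, in FPKM, the ratio of Il6st to Il6ra was 6.14 to 9.77 in MR, with a median of 7.12, and 5.25 to 12.1 in MXL, with a median of 9.57. The exact permutation test of this ratio gave p = 0.349.

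Stat3, on chromosome 11 from 100885098 to 100939540, encodes the transcription factor that carries the signal to the nucleus, and its mRNA says nothing about phosphorylation. Levels were 172 CPM in MR1, 171 in MR3, 171 in MR3_4, 189 in MR4_5 and 142 in MR5. The MXL libraries held 181 CPM in MXL1, 185 in MXL12, 138 in MXL3_4 and 153 in MXL_3. Stat3 was the steadiest of the 10 genes, with means of 169 ± 17.1 and 164 ± 22.5 CPM (SD, n = 5 and n = 4). The log2 fold change was 0.04 (edgeR p = 0.783, exact permutation p = 0.746), and its 95% interval of -0.28 to 0.37 was the narrowest. The fold change was 0.10 without MXL12.

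Socs3, on chromosome 11 from 117966079 to 117970047, is induced by STAT3 and encodes the main brake on gp130. It was 14.1 CPM in MR1, 23.8 in MR3, 19.7 in MR3_4, 19.1 in MR4_5 and 8.71 in MR5. In the MXL group it was 17.2 CPM in MXL1, 28.0 in MXL12, 9.91 in MXL3_4 and 16.9 in MXL_3. MXL12 was the highest library here too, 1.65 times the median of the other MXL libraries, while MR5 and MXL3_4 were the lowest libraries of their groups. Means were 17.1 ± 5.81 and 18.0 ± 7.46 CPM (SD, n = 5 and n = 4), with a log2 fold change of -0.08 (95% interval -0.84 to 0.69, edgeR p = 0.827, exact permutation p = 0.841) and of 0.22 without MXL12.

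Cish, on chromosome 9 from 107296026 to 107302784, is a feedback inhibitor known mainly from STAT5 signalling. Its level was 12.0 CPM in MR1, 27.9 in MR3, 10.7 in MR3_4, 10.1 in MR4_5 and 7.23 in MR5, and 22.2 CPM in MXL1, 8.10 in MXL12, 12.1 in MXL3_4 and 16.3 in MXL_3. The highest library was MR3, in which Il6 was lowest, and MXL12 was the lowest of its group. Means were 13.6 ± 8.21 and 14.7 ± 6.03 CPM (SD, n = 5 and n = 4), with a log2 fold change of -0.11, a 95% interval of -1.04 to 0.82 and an exact permutation p of 0.714 (edgeR p = 0.796). Without MXL12 the log2 fold change became -0.31.

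Socs1, on chromosome 16 from 10782240 to 10785536, encodes an inhibitor best known from interferon signalling, and was close to the limit of detection. It was 0.133 CPM in MR1, 0.512 in MR3, 0.303 in MR3_4, 0 in MR4_5 and 0.115 in MR5, and 0.430 CPM in MXL1, 0.212 in MXL12, 0.129 in MXL3_4 and 0.111 in MXL_3. These values rested on 0 to 41 counts, and a count of 0 allows a level of up to about 0.0378 CPM by counting error alone. The log2 fold change of -0.05 had a 95% interval of -2.14 to 2.04 (edgeR p = 0.956, exact permutation p = 0.889). A 2-fold change in either direction lay inside this interval and was not resolved. The standard error was 0.94, and 0.68 without MR4_5. Leaving out MXL12 gave -0.07.

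**Figure D3:**
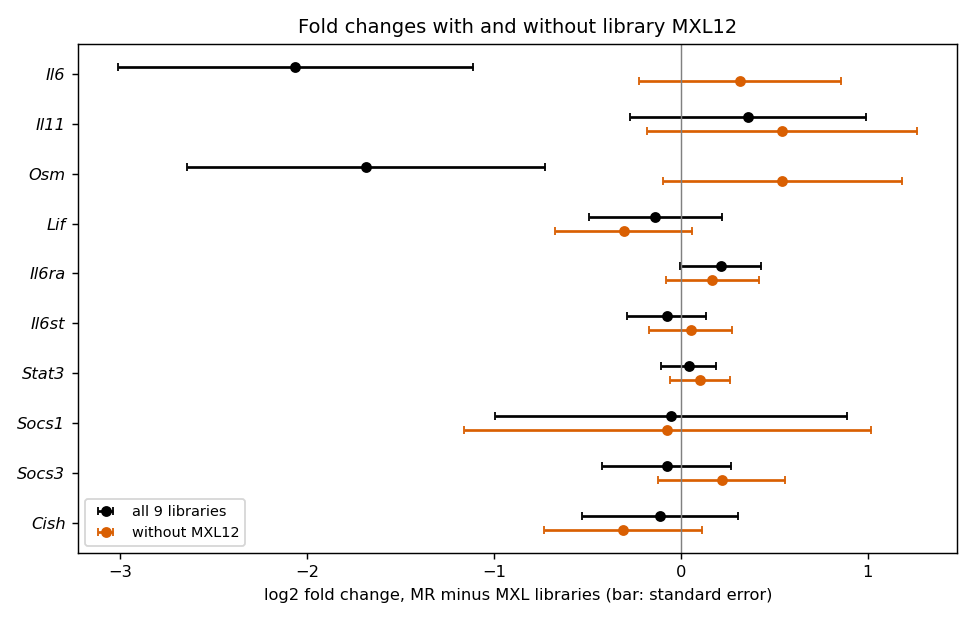
Log2 fold change of each gene, MR minus MXL, from edgeR (horizontal axis, bars are standard errors) with all 9 libraries and without MXL12. Il6 moves from -2.06 to 0.32 and Osm from -1.69 to 0.54, and the other 8 genes stay within 2-fold in either case.

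Compared per transcript length, in FPKM over all 9 libraries, the receptor and the transcription factor stood far above the cytokines. Median levels were 48.4 FPKM for Il6st, 17.0 for Stat3, 6.51 for Il6ra, 5.80 for Socs3 and 1.75 for Cish. Below these came Lif at 0.769 FPKM, Il6 at 0.406, Osm at 0.347, Il11 at 0.218 and Socs1 at 0.0428. The ranges of Il6st, Stat3 and Il6ra did not overlap, whereas from Il6ra downwards each gene's range overlapped that of the next. Il6ra exceeded Socs3 in 6 of 9 libraries, Il6 exceeded Osm in only 4 of 9, and Osm exceeded Il11 in 7.

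**Figure D4:**
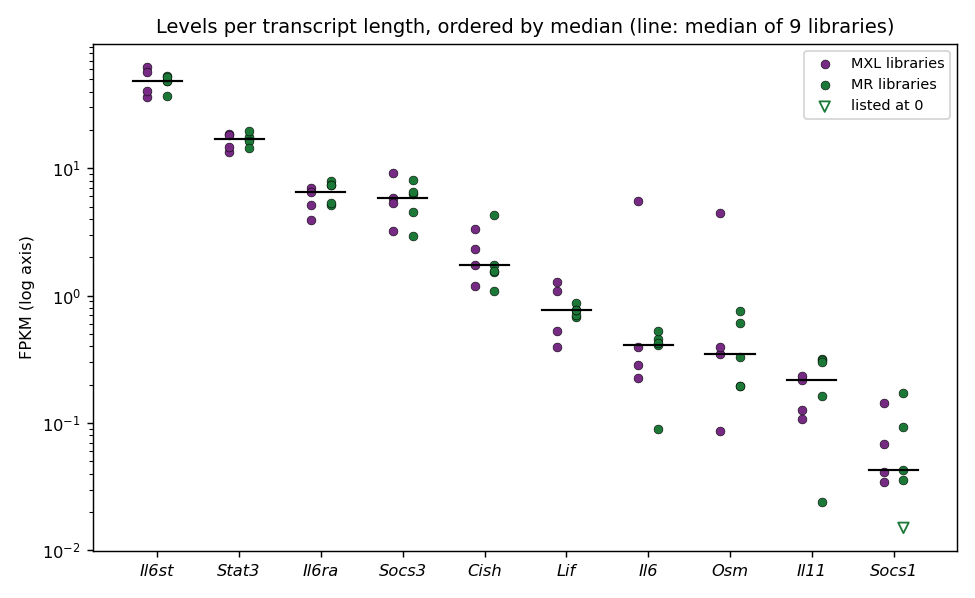
FPKM of the 10 genes (vertical, log axis), ordered by median, with 1 point per library coloured by group, a line at the median of 9 libraries and an open triangle for a library listed at 0. Il6st, at a median of 48.4 FPKM, lies above Stat3 at 17.0 and Il6ra at 6.51 in every library, and the points of Il6 and Osm in MXL12 fall within the range of Socs3.

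The remaining genes of the pathway were examined as a list of 56, of which 53 were tested. None was called by edgeR, with an adjusted p = 1.00 for each, and none had an unadjusted p under 0.05. Fitted values were higher in MR for 21 and lower for 32, with a median log2 fold change of -0.07, and without MXL12 for 26 and 27, with a median of -0.01. MXL12 was the highest of the 9 libraries for 14 of the 53. The share of all tested genes that were highest in MXL12 was not counted, so no trait of the pathway is read from this number.

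Of the ligands, 5 of 7 were tested, 2 with fitted values above and 3 below 0, with or without MXL12. Cntf, ciliary neurotrophic factor, had a log2 fold change of 0.65 (standard error, SE, 0.47), and Ctf1, cardiotrophin, one of -0.38 (SE 0.45). Of the 6 receptor chains, 1 was above and 5 below 0, with a median of -0.27 (without MXL12, 2 above and 4 below). Lifr, the receptor for leukemia inhibitory factor, stood at 0.19 (SE 0.18) and Il27ra, a chain of the interleukin-27 receptor, at -0.34 (SE 0.36). Osmr, the chain through which oncostatin M acts together with gp130, was named after its values were seen: it held 148 CPM in MXL12, against 63.2 to 72.0 in the other MXL and 59.3 to 101 in the MR libraries.

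All 4 Janus kinases had fitted values below 0 with all libraries, but without MXL12 Jak1 was at 0.045 and 3 were below 0. Jak2 stood at -0.36 (SE 0.24), and at -0.07 without MXL12. Jak3, which serves lymphocyte cytokine receptors, stood at -0.21 (SE 0.50), and at -0.46 without MXL12. Jak2 was also highest in MXL12, at 188 CPM beside at most 122 elsewhere, and so was Jak1, at 368 CPM. Jak3 and Tyk2 were lowest in MXL12, at 1.58 and 12.51 CPM, beside at least 1.63 and 12.52 CPM elsewhere. Of the other 6 STAT genes, 4 were above and 2 below 0, and without MXL12 2 were above and 4 below. Stat4, which carries interleukin-12 signals, had -0.48 (SE 0.37) and -0.01 without MXL12. Of the 13 other feedback genes, 5 were above and 8 below 0, all between -0.30 and 0.16 (without MXL12, 7 above and 6 below), with Socs5 at 0.15 (SE 0.17) and Socs7 at -0.11 (SE 0.16).

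Of 20 genes known as STAT3 targets, 19 were tested, 9 with fitted values above and 10 below 0, and their median was -0.00034. Without MXL12 12 were above and 7 below 0, with a median of 0.15. Fos, an immediate early gene of the AP-1 factor, had the largest value of the list, 1.34 (SE 0.76), with levels from 5.93 CPM to 215 CPM in MR and from 14.2 to 45.4 CPM in MXL. Saa3, an acute phase serum amyloid gene, had -1.05 (SE 0.71) and 0.66 without MXL12. It was 70.6 CPM in MXL12, beside 5.70 to 9.47 CPM in the other MXL libraries and 7.66 to 14.6 CPM in MR. Named after their values were seen, Timp1, an inhibitor of matrix metalloproteinases, held 85.0 CPM in MXL12 and at most 23.9 CPM elsewhere, and Lcn2, an iron-binding protein that neutrophils also make, 16.4 CPM and at most 8.21 CPM. The targets Hif1a and Mcl1 also peaked in MXL12, at 527 and 431 CPM, whereas Pim1, at 42.6 CPM there, lay inside the range of the other MXL libraries. MXL12 was the highest library for 5 of the 19 tested targets, all named here, and the share over all tested genes was not counted. Bcl6 went the other way, with 28.6 CPM in MXL12, at least 42.4 in the other MXL libraries and at least 30.7 in MR. Bcl2l1, Pim3 and Junb, at 17.4, 4.58 and 0.410 CPM in MXL12, were also lowest there within the MXL group.

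**Figure D5:**
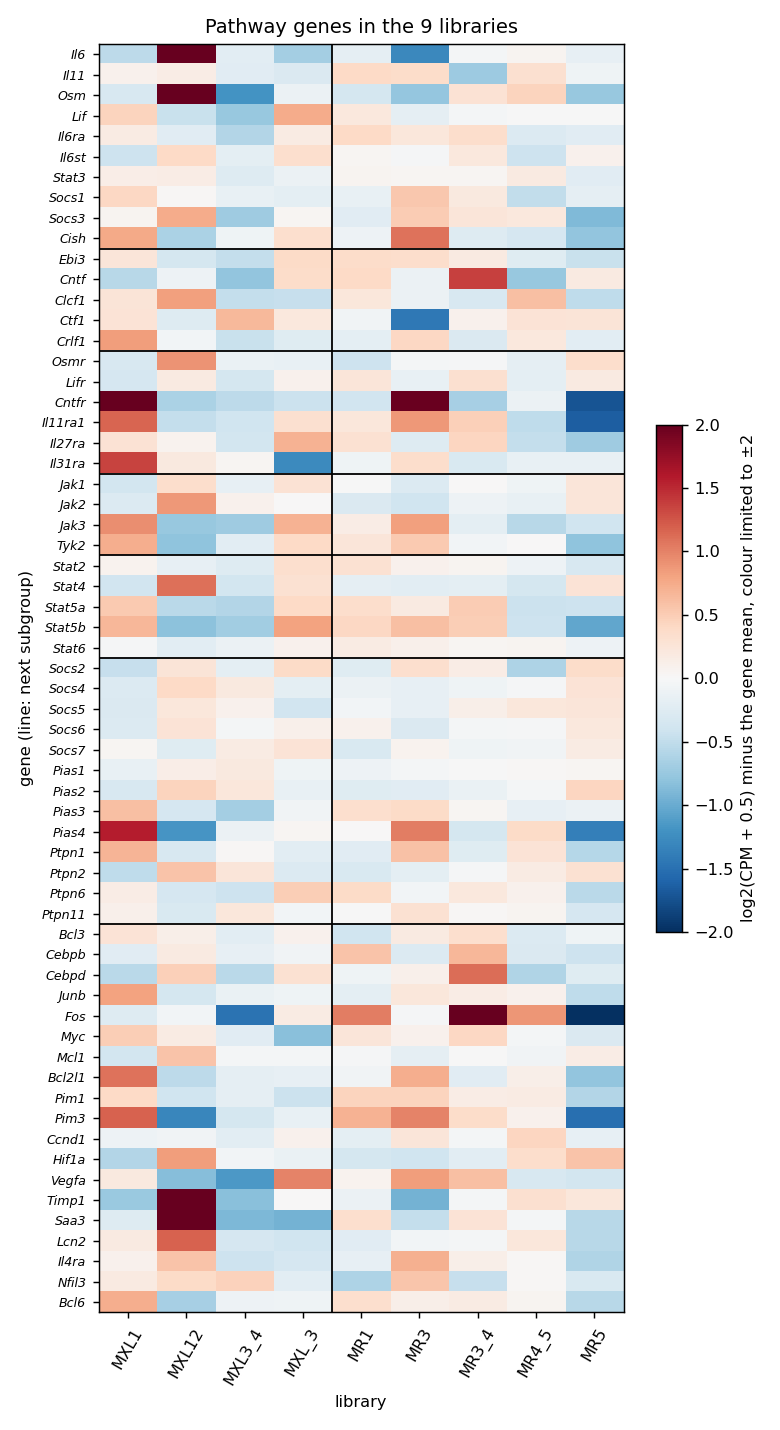
Level of the 10 genes and of 52 of the 53 tested pathway genes (rows, black lines between subgroups) in the 9 libraries (columns, MXL left and MR right), as log2(CPM + 0.5) minus the mean of each gene, with colour limited to ±2. No subgroup changes colour at the line between the groups, and the darkest red cells are Il6, Osm, Saa3 and Timp1 in MXL12, Cntfr in MXL1 and MR3, and Fos in MR3_4.

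Across the 9 libraries the 10 genes did not vary as 1 block. On the log2(CPM + 0.5) scale, Il6 and Osm had a Pearson r of 0.90, which was 0.38 without MXL12. Socs3 and Stat3 had an r of 0.81, and 0.78 without MXL12. Socs3 and Il6 had an r of 0.36, and -0.45 without MXL12, while Cish and Il6 had -0.63 and -0.86. These values describe 9 libraries of 1 tissue under the same DNCB exposure, and no test was made of them.

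The genes whose levels were most like those of Il6 were Nppb, the gene of a natriuretic peptide, with an r of 0.977, Il18rap, a chain of the interleukin-18 receptor, with 0.977, Smim3 with 0.973, Mcemp1 with 0.969 and the interferon-induced Ifi202b with 0.964. All 5 were highest in MXL12, and without that library their r fell to between 0.686 and 0.911. Their ranks among the genes most like Il6 were then 62, 13, 59, 767 and 337, in the order named. Ifi202b, for instance, was 172 CPM in MXL12 and at most 20.9 CPM elsewhere. The genes most like Socs3 were Cd14, the co-receptor for bacterial lipopolysaccharide, with an r of 0.932, Alpl, an alkaline phosphatase, with 0.908, Il4ra, the interleukin-4 receptor chain, with 0.905, the immediate early gene Nr4a1 with 0.874 and Gm9774 with 0.867. For these 5 the r without MXL12 was between 0.871 and 0.917, but their ranks were then 36, 172, 173, 147 and 174, in the order named. None of either list thus stayed among the 5 most alike without MXL12. Il4ra, Nr4a1 and Gm9774 were highest in MR3 and not in MXL12.

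Some of the 10 genes share exonic bases with a gene on the opposite strand. The shared part was 0.756% of the exonic length for Stat3, with Stat5a, 2.80% for Il6ra, with Gm42809, and 4.07% and 7.46% for Cish, with Gm17040 and Gm17041. The library kit kept the strand of the RNA, the strand setting of the counting is not given in the sources used here, and Stat5a, Gm42809, Gm17040 and Gm17041 held at most 1751, 8, 36 and 0 counts in a library.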

How the data were processed

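RNA of back skin was sequenced in 9 libraries (Model 4, FJDHF 5) with poly(A) selection and a strand-marking kit. The authors deposited whole-number read counts for 55401 genes and FPKM values, which are counts scaled for gene length and depth, for 34637 genes. HISAT, StringTie, DESeq2 and the build mm10 appear in the submitters' processing notes, without their roles or versions. The strand setting is not given in the sources used here. A further 9 columns beside the FPKM values repeat the counts, were identical to them and were not used.

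The main test of the counts was the quasi-likelihood F-test of edgeR 4.0.16 (R 4.3.3) after filterByExpr and TMM scaling, without covariates, with Benjamini-Hochberg adjustment over all 20817 tested genes. A gene was called at an adjusted p under 0.05 and at least 2-fold, the study's own criteria. An exact permutation test, two-sided, on log2(CPM + 0.5) was also run for each of the 10 genes (scipy 1.17.1). These 10 tests were not adjusted as a family. A count of 3 was taken as the floor, 0.0375 to 0.0415 CPM, and covers counting error only. No 2 libraries agreed within sampling noise. Promoter windows came from RefSeq (GRCm38.p6) and exons from GENCODE M21. The steps were tested on simulated data.

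The genes, the pathway list and the marker lists were chosen with earlier results of these data known. Beside the 10 genes, the text names the 2 genes of each pathway subgroup with the smallest p and the 5 genes most like Il6 and Socs3; others were named after their values were seen, and 1 gene chosen by this rule is not reported here. Alternatives were DESeq2 1.42.0 (size factors or Wald test), limma 3.58.1 on log2(FPKM + 1), other filters, pseudocounts, ranks, a block and each library left out. The pathway list without MXL12 was added after seeing the data.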

Additional observations from a re-analysis of the deposited data

Results flagged for a closer look

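Of 22 groups of 4 or 5 libraries examined for a single distant library, 20 on the log2(CPM + 0.5) scale and 2 on the total count, 2 had one, where chance alone gives about 1 in 20, or 1.1 of 22. Il6 in MXL12 was set apart from the other MXL libraries by 0.875 of the whole range of the group, at 14.1 CPM beside 0.609 to 1.03. Il6 in MR3 was set apart from the other MR libraries by 0.827 of the range, at 0.225 CPM and 18 counts beside 1.06 to 1.34 CPM and 80 to 106 counts. The cause of either value was not tested.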

How the results depend on the processing

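The count of called genes was 0 under every edgeR and limma setting, each left-out library included, and 2 with DESeq2's Wald test, neither of them among the 10. DESeq2 gave no p for Il6 and Osm, so neither was tested by it. Genes at an unadjusted p under 0.05 numbered 326, 905 without the filter, and 217 to 734 with 1 library left out; genes whose groups did not overlap numbered 107, 162 without the filter, and 152 to 558. Of the 10, 0 to 2 reached an unadjusted p under 0.05 by edgeR with 1 library left out, namely Il6 without MXL1, MXL3_4 or MXL_3 and Osm without MXL3_4. All of these fits kept MXL12. Over all tested genes they gave 734 of 21292 without MXL1, 322 of 21372 without MXL3_4 and 484 of 21295 without MXL_3. With 1 library left out, log2 fold changes spanned -2.42 to 0.32 for Il6, -2.08 to 0.54 for Osm, -0.37 to 0.19 for Lif, -0.21 to 0.053 for Il6st, -0.033 to 0.10 for Stat3, -0.71 to 0.49 for Socs1, -0.28 to 0.22 for Socs3 and -0.57 to 0.16 for Cish. Il11 and Il6ra stayed above 0. The permutation differences spanned -1.10 to 0.15 for Il6, -1.01 to 0.32 for Osm, -0.25 to 0.25 for Lif, -0.20 to 0.074 for Il6st, -0.034 to 0.11 for Stat3, -0.18 to 0.091 for Socs1, -0.31 to 0.18 for Socs3 and -0.46 to 0.052 for Cish. On ranks Il6 reversed to 0.90, and with a pseudocount of 0.1 Lif to 0.016.

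A replicate block on the numbers 1, 3 and 3_4, shared by codes of both groups, left 0 called genes and 281 at an unadjusted p under 0.05. It turned Osm to 0.44, Il6st to 0.17, Socs1 to 0.63 and Socs3 to 0.40, with Il6 at -0.17. MXL12, MR4_5 and MR5 share no number with another library, so the group difference in this fit rests on the 3 pairs. The effect of the block cannot be told apart from that of losing MXL12, MR4_5 and MR5. The 3 pairs' deviations correlated at 0.225, -0.219 and 0.118, so the numbers were not taken as pairing. Socs1 and Il11 were not tested where 10 counts in every library were required.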
